A study of Sus scrofa with 50 samples.

Results

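A set of 10 genes of the extracellular matrix and of mesenchymal cells, none of them a collagen, was followed through 5 tissues (spleen, lung, liver, kidney and heart) of 2 types of Korean minipig, ET and L. The members were fixed by name from a list of 10 Swiss-Prot entries, out of 35133 genes measured in all. They were fibronectin (FINC, gene FN1), lumican (LUM), biglycan (PGS1, gene BGN), decorin (PGS2, gene DCN), periostin (POSTN), SPARC (SPRC), fibrillin-1 (FBN1), fibulin-3 (FBLN3, gene EFEMP1), vimentin (VIME, gene VIM) and SLIT2. They were chosen by values of these same libraries. Which values is not stated for every tissue. Heart was taken as the contrast in view and is described with no test, and the p-values of the other tissues do not allow for any part their values had in the choice.

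The series compared the transcriptomes of these types, and the labels name them ET and L without spelling the letters out. Animals S0235, S0242, S0276, S0309, S0326 belonged to the ET type, and S0349, S0355, S0377, S0384, S0385 to the L type. Each of the 10 animals gave 1 library of each tissue, 50 in all. No treatment is named, and age, sex and relatedness are not given in the sources used here.

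The extracellular matrix is the protein meshwork that fibroblasts and related mesenchymal cells lay down around tissue cells. Small leucine-rich proteoglycans (lumican, biglycan, decorin) bind collagen fibrils, and decorin and biglycan also bind growth factors such as TGF-beta. Fibronectin links matrix to integrins on the cell surface, fibrillin-1 forms the microfibrils of elastic tissue, and fibulin-3 is a secreted glycoprotein found beside elastic fibres and basement membranes. Periostin and SPARC are matricellular proteins, which act on cells and on collagen assembly more than as scaffold. Vimentin is the intermediate filament of mesenchymal cells and is also abundant in endothelial cells and leukocytes, and SLIT2 is a secreted ligand of ROBO receptors that guides axons and migrating cells.

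Levels are TPM, a share of all transcripts corrected for transcript length, summed over the assembled transcripts whose best protein match was the entry. The 10 genes rested on 27 transcripts, between 1 (periostin) and 4 (fibronectin, biglycan and vimentin) each. In RefSeq's annotation of the pig build Sscrofa11.1, FN1 lies at chr15:117658158-117737145, BGN at chrX:124282048-124295450, POSTN at chr11:13225183-13258973, SPARC at chr16:71368164-71380972 and FBN1 at chr1:123102011-123359649. EFEMP1 lies at chr3:85407677-85473251, VIM at chr10:43516441-43526172 and SLIT2 at chr8:14758426-15149515. Decorin and lumican are chromosomal neighbours, with DCN at chr5:91678601-91713925 and LUM at chr5:91748871-91756381, and 34945 bases lie between them.

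Tissue labels were checked against marker genes. Summed heart markers were 21795 to 80004 TPM in heart libraries and at most 238 TPM elsewhere, and the liver, lung and spleen markers likewise separated their own libraries from all others. The kidney library of ET-type S0235 held 0.335 TPM of kidney markers, against 1227 to 7287 TPM in the other 9 kidneys. It held 2219 TPM of leukocyte markers, against at most 74.5 TPM in the other kidneys, and 491 TPM of spleen markers, against 608 to 1095 TPM in spleens. It is given apart below, so kidney has 4 ET-type and 5 L-type animals. Only TPM was used, which keeps no depth, so no counting interval can be given.

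All 10 members differed between tissues (limma F test over 49 libraries, adjusted p between 1.44e-26 and 0.000445), as did 96.3% of all genes tested. Along each gene's order of tissues, 23 of 40 neighbouring pairs differed, as judged by limma over all genes. The order came from the same values, and neighbours in it are the closest tissues by construction. This count therefore cannot be set against the shares for fixed pairs of tissues, which are given next. Of all genes, 80.5% differed between liver and lung, 80.1% between heart and lung, 66.4% between heart and kidney and between kidney and liver, 66.2% between lung and spleen, 62.0% between kidney and lung, 60.1% between liver and spleen, 57.6% between kidney and spleen, 55.3% between heart and spleen and 53.8% between heart and liver. These pairs were tested on TPM as deposited, where the median gene was lower in heart than in lung by a log2 difference of -0.99 and lower in liver than in lung by -0.94.

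Fibronectin was highest in liver, the source of its plasma form. Its level ran from 184 to 893 TPM in liver (median 595), from 26.4 to 138 TPM in lung (median 70.6) and from 19.2 to 35.2 TPM in spleen (median 27.2). Heart (5.0 to 31.7 TPM, median 12.6) and kidney (3.07 to 41.8 TPM, median 9.34) were lowest and were not told apart by the test (adjusted p = 0.752), while each other step in the order did.

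The proteoglycans had different orders. Decorin was the most abundant of the 3 in heart, at 134 to 1571 TPM (median 516), followed by lung at 109 to 796 TPM (median 222). Spleen (49.2 to 461 TPM, median 124) and kidney (42.9 to 270 TPM, median 121) were not told apart, and liver held 0.808 to 13.9 TPM (median 3.80). Lumican, its neighbour on the chromosome, was likewise highest in heart (28.0 to 270 TPM, median 81.4), and lowest in liver (0 to 2.96 TPM, median 0.601). Lung (12.9 to 65.1 TPM, median 20.3) and kidney (5.48 to 68.2 TPM, median 17.3) were not told apart for lumican, and spleen lay below them at 2.36 to 39.4 TPM (median 6.58).

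Biglycan was instead highest in spleen, at 159 to 453 TPM (median 314), and lowest in heart, at 7.90 to 43.8 TPM (median 21.1). Kidney held 36.2 to 171 TPM (median 115), liver 35.7 to 102 TPM (median 61.4) and lung 9.76 to 53.2 TPM (median 34.4). All of its neighbouring tissues differed except lung and heart (adjusted p = 0.0866). In liver biglycan stood far above decorin and lumican, and in heart far below decorin.

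Among the fibre proteins, fibrillin-1 held 7.53 to 90.0 TPM in heart (median 26.8), 12.3 to 27.2 TPM in spleen (median 18.2), 8.64 to 24.5 TPM in kidney (median 15.9) and 8.28 to 18.5 TPM in lung (median 11.3), and no neighbours among these 4 were told apart. With the animal as replicate block, heart and spleen did (adjusted p = 0.0326, against 0.0561 without). Liver was lower, at 1.04 to 3.62 TPM (median 2.64). Fibulin-3 was high in lung (68.6 to 211 TPM, median 99.1) and kidney (50.8 to 111 TPM, median 83.9), which were not told apart, and lower in heart (6.36 to 50.8 TPM, median 17.2) and spleen (2.49 to 31.8 TPM, median 13.7). Heart and spleen differed with the replicate block (adjusted p = 0.0379) and not without it (0.0526). In liver it was near absent, at 0.160 to 1.92 TPM (median 0.434).

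SPARC, which binds collagen as it is secreted, was highest in spleen at 187 to 677 TPM (median 347). Kidney (130 to 303 TPM, median 217), lung (70.6 to 261 TPM, median 184) and heart (60.8 to 465 TPM, median 171) followed, with no neighbours told apart among the 3, and liver held 6.64 to 35.8 TPM (median 15.1). Periostin varied widely within tissues, and its lung libraries ran from 1.29 to 339 TPM (median 18.8). Its other ranges were 12.1 to 139 TPM in liver (median 44.2), 3.29 to 70.2 TPM in spleen (median 22.1), 4.90 to 25.1 TPM in kidney (median 12.7) and 0.714 to 24.4 TPM in heart (median 4.61). No neighbouring tissues passed the test for periostin.

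Vimentin was highest in lung at 645 to 1330 TPM (median 1028), then in spleen at 456 to 847 TPM (median 633). Kidney (147 to 631 TPM, median 348) and heart (112 to 815 TPM, median 285) were not told apart, and liver was lowest at 12.6 to 72.9 TPM (median 28.3). SLIT2 was the least abundant member in heart and spleen. It was highest in kidney, at 6.74 to 46.9 TPM (median 13.7), where SLIT2 is known to limit outgrowth of the ureteric bud in development. Lung (1.45 to 18.3 TPM, median 9.84) and spleen (3.33 to 11.8 TPM, median 5.50) were not told apart, and heart (0.516 to 5.16 TPM, median 1.91) exceeded liver (0.107 to 1.45 TPM, median 0.634).

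**Figure D1:**
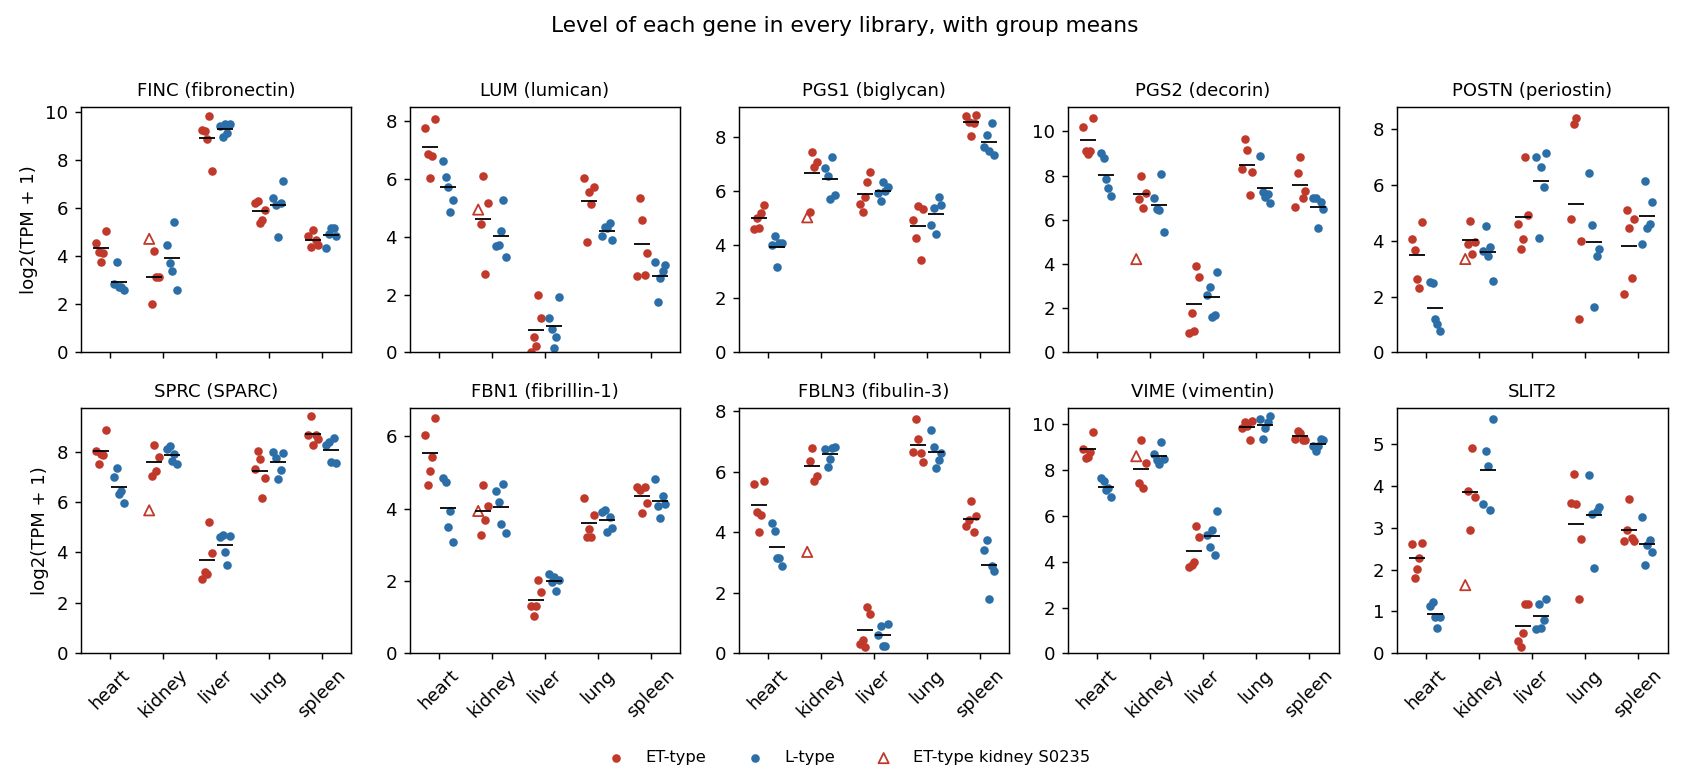
Level of each gene as log2(TPM + 1) in every library, by tissue on the x axis; red points are ET-type and blue points L-type animals, bars are group means, and the open triangle is the kidney library of S0235. In heart the ET-type mean lies above the L-type mean in all 10 panels, while in kidney, lung and spleen the order of the means varies from gene to gene.

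In heart, every member had a higher mean in ET-type than in L-type animals. The log2 differences ran from 1.05 to 1.88 with a median of 1.42, where the median over all 21014 genes tested was 0.09. In 4 of 10 members (biglycan, SPARC, vimentin and SLIT2) the lowest ET-type heart lay above the highest L-type heart, as it did for 3.11% of all genes. This contrast is taken to have been in view when the members were chosen, so nothing is read from that count. Throughout, a difference is the mean in ET-type minus that in L-type animals of log2(TPM + 1), a scale that understates the change of genes at low levels.

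Among the proteoglycans, biglycan measured 23.1, 30.8, 23.6, 35.5 and 43.8 TPM in the ET-type hearts, from S0235 through S0242, S0276 and S0309 to S0326. In the L-type hearts, from S0349 through S0355, S0377 and S0384 to S0385, it measured 15.0, 19.0, 7.90, 15.9 and 15.6 TPM. The types did not overlap, S0377 stood lowest, and the difference was 1.05 (SE 0.25). Decorin measured 1183, 553, 509, 550 and 1571 TPM in ET-type and 523, 441, 233, 172 and 134 TPM in L-type hearts, in the same order of animals. S0235 and S0326 stood far above the other ET-type hearts, the L-type heart of S0349 reached the level of S0276, and the difference was 1.57 (SE 0.44).

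Lumican measured 217, 116, 63.7, 110 and 270 TPM in ET-type and 96.5, 66.3, 51.6, 28.0 and 37.8 TPM in L-type hearts. As for decorin, S0235 and S0326 were the highest, and S0276 lay within the L-type range. The difference was 1.40 (SE 0.41).

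Fibronectin, which bridges matrix and integrins, measured 22.6, 16.9, 12.4, 16.6 and 31.7 TPM in ET-type and 6.26, 12.7, 5.54, 5.48 and 5.0 TPM in L-type hearts. The types overlapped through 1 pair of hearts, ET-type S0276 and L-type S0355, and the difference was 1.40 (SE 0.28). Fibrillin-1 measured 65.1, 24.2, 31.8, 42.2 and 90.0 TPM in ET-type and 27.7, 25.9, 10.3, 14.2 and 7.53 TPM in L-type hearts. ET-type S0242 lay within the L-type range, and the difference was 1.52 (SE 0.41). Fibulin-3 measured 47.6, 24.6, 15.0, 23.0 and 50.8 TPM in ET-type and 18.6, 15.7, 7.86, 7.86 and 6.36 TPM in L-type hearts. ET-type S0276 again lay within the L-type range, and the difference was 1.41 (SE 0.37).

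SPARC measured 262, 180, 241, 230 and 465 TPM in ET-type and 126, 162, 78.8, 85.1 and 60.8 TPM in L-type hearts. The types did not overlap, and the difference was 1.43 (SE 0.30). Periostin, the other matricellular member, measured 15.7, 11.8, 5.21, 3.98 and 24.4 TPM in ET-type and 4.68, 4.54, 1.32, 1.03 and 0.714 TPM in L-type hearts. Its difference of 1.88 (SE 0.49) had the widest error of the 10, and ET-type S0309 fell below L-type S0349 and S0355.

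Vimentin measured 483, 370, 383.8, 441 and 815 TPM in ET-type and 200, 185, 141, 148 and 112 TPM in L-type hearts. The lowest ET-type heart stood well clear of the highest L-type heart, and the difference was 1.63 (SE 0.24). Desmin (DESM), the intermediate filament of muscle, differed in the opposite direction in heart, by -1.51 (SE 0.29), and was singled out after its values were seen. SLIT2 measured 5.08, 2.48, 3.05, 3.88 and 5.16 TPM in ET-type and 1.19, 1.34, 0.820, 0.516 and 0.838 TPM in L-type hearts. Its types did not overlap, and the difference was 1.33 (SE 0.21), which became 0.83 with only its most abundant transcript.

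The hearts kept much the same order from gene to gene. S0326 was the highest ET-type heart for 10 of 10 members, and S0349 (6 members) or S0355 (4 members) the highest L-type heart. S0385 was the lowest L-type heart for 7 members. Without ET-type S0276, which lay within the L-type range for several members, 8 of 10 members did not overlap (4.82% of all genes). Leaving out any other single animal gave 4 or 5, for which the share over all genes was not taken. With any 1 animal left out the differences ran from 0.86 (biglycan) to 2.17 (periostin). This contrast is taken to have chosen the members, so these counts and differences are descriptive and are no check of it.

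Summed markers of other cell types are given for the hearts as a description, with no test. In each list of this paragraph the sums overlapped between types. The 5 heart muscle markers summed to 21795 to 64910 TPM in ET-type and 64193 to 80004 TPM in L-type hearts, and 0 of 5 had a higher mean log2 level in ET-type. Endothelial markers summed to 218 to 616 against 160 to 266 TPM (8 of 8 higher in ET-type), smooth muscle markers to 346 to 681 against 217 to 398 TPM (5 of 6 higher), and macrophage markers to 51.7 to 101 against 34.2 to 76.9 TPM (5 of 5 tested higher). Leukocyte markers were low in both, at 9.04 to 16.8 against 8.13 to 11.0 TPM. Red cell markers summed to 129 to 1161 TPM in ET-type and 13.4 to 135 TPM in L-type hearts, with 4 of 4 tested higher in ET-type.

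Mesothelial markers, which would mark the outer lining of the heart, stayed at 2.25 to 8.08 TPM in ET-type and 0.908 to 2.92 TPM in L-type hearts, where MSLN and UPK3B were listed at 0. Mitochondrial transcripts made up 32.8% to 47.1% of TPM in ET-type and 29.1% to 39.6% in L-type hearts. With these and haemoglobin removed, 7 of 10 members did not overlap (4.59% of all genes), and the differences ran from 1.23 (biglycan) to 2.16 (periostin). The part of these cell types in the members' levels was not tested. In whole tissue, more cells of a type and more RNA per cell cannot be told apart.

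**Figure D2:**
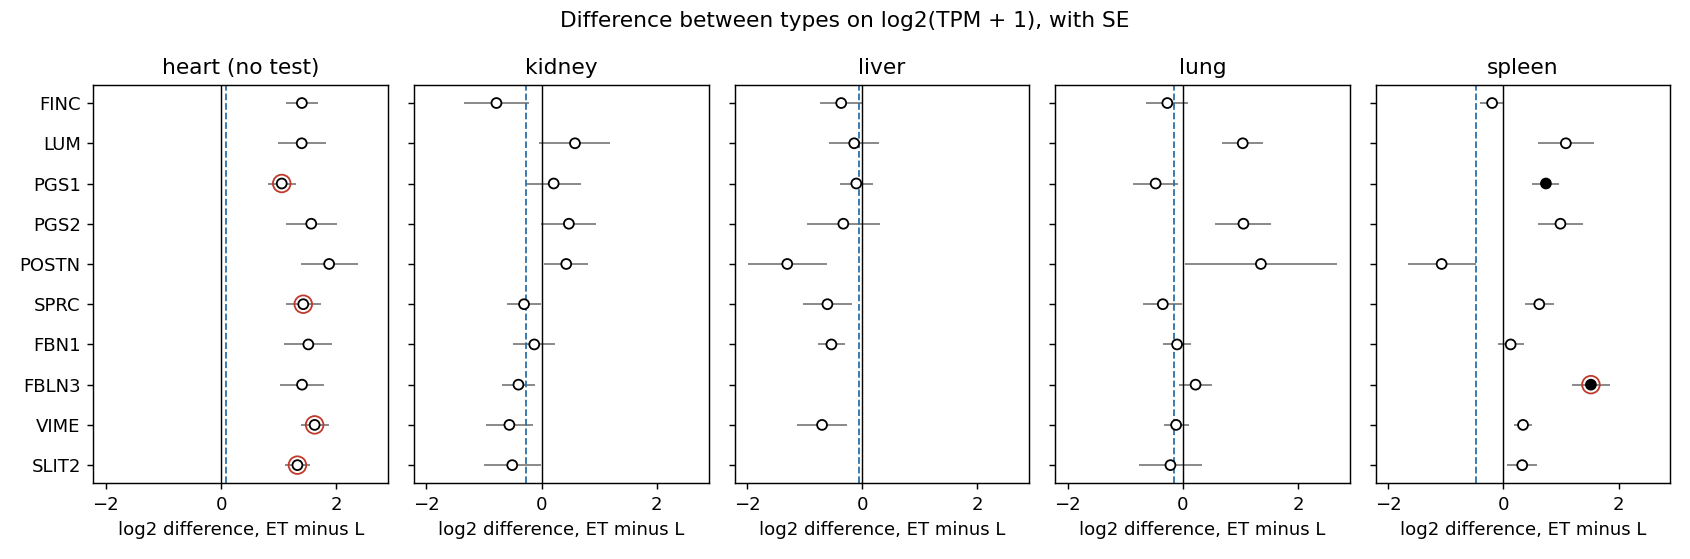
Difference between types for each gene, mean log2(TPM + 1) in ET-type minus that in L-type, with SE, in 5 tissues; the dashed line is the median over all genes in that tissue, filled points were called by limma and red rings mark genes whose types did not overlap. All 10 points lie above 0 in heart, which was not tested, and biglycan and fibulin-3 are the filled points, both in spleen.

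In spleen, biglycan and fibulin-3 rose in ET-type animals, the 2 of 10 members that passed the test, and none fell. Of all 24007 genes tested 22.2% were called, but 0.696% were called higher in ET-type, since the median gene lay at -0.47. The members' median was 0.48, and 8 of 10 had differences above 0. Genes higher in ET-type made up 3.13% of the calls on TPM as deposited (167 of 5339), 64.6% after median-ratio scaling (476 of 737, with 3.14% of genes called) and 52.1% after quantile scaling (25 of 48, with 0.2% called), so the direction of a spleen gene against 0 depends on the scale. Median-ratio scaling moved the median over all genes to 0.01 in spleen, to 0.01 in kidney, to -0.02 in lung and to -0.04 in heart.

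Fibulin-3 in spleen measured 17.4, 20.0, 31.8, 15.0 and 22.2 TPM in the ET-type spleens, from S0235 to S0326. The L-type spleens, from S0349 to S0385, measured 9.56, 12.4, 2.49, 6.40 and 5.61 TPM. The types did not overlap, as was the case for 0.275% of all genes in this direction. The difference was 1.52 (SE 0.33, adjusted p = 0.0247), and 2.03 after median-ratio scaling (adjusted p = 0.0397). After quantile scaling it was 1.98 with adjusted p = 0.0668, and with the animal as replicate block in a fit of all tissues the adjusted p was 0.00197. The call ended without ET-type S0276 (adjusted p = 0.0543), ET-type S0326 (0.0578), L-type S0377 (0.0643) or L-type S0385 (0.0675).

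Biglycan in spleen measured 435, 376, 262, 362 and 453 TPM in ET-type and 197, 266, 177, 367 and 159 TPM in L-type animals. L-type S0384 reached the level of the ET-type animals, so the types overlapped, and the difference was 0.74 (SE 0.24, adjusted p = 0.0441). After median-ratio scaling it was 1.33 (adjusted p = 0.0418). The adjusted p was 0.101 with the animal as replicate block and 0.0864 after quantile scaling. Leaving out 1 animal ended the call for each of the 5 ET-type animals (0.0539 to 0.0925) and for L-type S0349 (0.0619), S0377 (0.104) and S0385 (0.115). It held without S0355 or S0384.

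Vimentin measured 663, 847, 797, 628 and 634 TPM in ET-type and 537, 456, 531, 661 and 633 TPM in L-type spleens, with the 2 highest L-type animals inside the ET-type range. Its difference of 0.34 (SE 0.16) did not pass (adjusted p = 0.109). It passed at 0.93 after median-ratio scaling (adjusted p = 0.0391) and at 0.60 without mitochondrial and haemoglobin transcripts (adjusted p = 0.0436). The remaining spleen members did not pass on TPM as deposited. Lumican (1.08, SE 0.49), decorin (0.99, SE 0.40) and SPARC (0.62, SE 0.25) had adjusted p between 0.0790 and 0.107. Without ET-type S0235 decorin passed (1.24, adjusted p = 0.0443). Periostin had the lowest value, -1.07 (SE 0.59, adjusted p = 0.170), and measured 3.29, 33.1, 21.0, 5.30 and 26.7 TPM in ET-type and 13.7, 70.2, 21.0, 23.1 and 40.6 TPM in L-type spleens.

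Transcripts that mark blood and stromal cells are given for the spleens as shares of TPM. Haemoglobin transcripts made up 11.0% to 33.5% of TPM in ET-type and 0.548% to 14.9% in L-type spleens. Leukocyte markers summed to 125 to 367 against 321 to 893 TPM (0 of 6 higher in ET-type), macrophage markers to 582 to 1319 against 1322 to 2470 TPM, and smooth muscle markers to 7182 to 12277 against 3767 to 10562 TPM. The fibroblast list summed to 511 to 952 TPM in ET-type and 823 to 994 TPM in L-type spleens. Of these ranges, only that of the macrophage markers did not overlap between types. The leukocyte markers CD2, CD3E and CD79A were called lower in ET-type by limma (adjusted p between 0.0270 and 0.0467). After median-ratio scaling they were not called (adjusted p between 0.0819 and 0.295). The part of these cell types in the spleen differences was not tested. With haemoglobin and mitochondrial transcripts removed and the rest rescaled, fibulin-3 and biglycan were called by limma (adjusted p = 0.0347 and 0.0390). So were 2120 of 25125 genes, 220 of them higher in ET-type. This rescaling leaves the cell content of the samples as it was.

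In kidney, liver and lung no member passed the test. In kidney 0 of 10 were called (0.00376% of all genes), and 0 had an unadjusted p under 0.05 (8.70% of all genes). There 4 of 10 differences lay above 0 (median -0.22, against -0.28 over all genes). The largest in size was fibronectin at -0.78 (SE 0.57), with 3.07, 17.5, 7.66 and 7.82 TPM in ET-type S0242, S0276, S0309 and S0326 and 20.7, 12.2, 9.34, 41.8 and 4.95 TPM in L-type kidneys. ET-type S0276 was the highest of its group for 9 of 10 members. SLIT2, at its highest in this tissue, measured 13.7, 6.74, 28.8 and 12.2 TPM in ET-type and 10.8, 27.3, 21.3, 9.71 and 46.9 TPM in L-type kidneys, with broad overlap (-0.51, SE 0.49).

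The lymphoid kidney library of S0235 was below all 9 other kidneys for 5 members. It held 31.3 TPM of biglycan, 17.7 TPM of decorin, 9.22 TPM of fibulin-3 and 2.09 TPM of SLIT2, and its SPARC was likewise below 130 TPM, the lowest of the others. For fibronectin (25.3 TPM), lumican (29.7 TPM), periostin (9.16 TPM), fibrillin-1 (14.3 TPM) and vimentin (389 TPM) it lay within their range. Set against the spleens, its fibulin-3 level lay within the L-type range, 2.49 to 12.4 TPM, and below the ET-type range, 15.0 to 31.8 TPM. Its biglycan, decorin, SPARC, vimentin and SLIT2 lay below every spleen. Its fibronectin, lumican, periostin and fibrillin-1 lay within the range of the spleens.

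In liver 8 of 10 members were tested, since fibulin-3 and SLIT2 averaged under 1 TPM. None were called (0.00933% of all genes), 8 of 8 differences lay below 0 with a median of -0.45, and the median of all genes was -0.06. Periostin measured 23.2, 12.1, 15.7, 127 and 29.0 TPM in ET-type and 127, 16.2, 98.5, 59.5 and 139 TPM in L-type livers. Both groups spanned low and high animals, and its difference of -1.30 (SE 0.68) did not pass (adjusted p = 0.797). Fibrillin-1 was the 1 liver member of 8 with an unadjusted p under 0.05 (-0.53, SE 0.24, adjusted p = 0.752), as had 6.58% of all genes. It measured 1.47, 1.04, 1.49, 3.07 and 2.26 TPM in ET-type and 3.62, 2.96, 3.28, 2.33 and 3.08 TPM in L-type livers. ET-type S0309 was the highest ET-type liver for 9 of 10 members, periostin included.

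In lung 0 of 10 were called (0.213% of all genes), and 1 had an unadjusted p under 0.05 (16.2% of all genes). There 4 of 10 differences lay above 0 (median -0.11, against -0.15 over all genes). Of the lung genes called, 12.9% were higher in ET-type, and 28.6% and 34.5% after median-ratio and quantile scaling. Periostin measured 26.3, 291, 339, 1.29 and 14.8 TPM in ET-type and 86.0, 22.8, 2.08, 9.82 and 11.9 TPM in L-type lungs. S0242 and S0276 stood far above all others, S0309 was the lowest of all, and the difference was 1.36 (SE 1.31). Lumican measured 65.1, 12.9, 46.3, 34.0 and 52.0 TPM in ET-type and 15.5, 19.2, 18.9, 21.5 and 13.7 TPM in L-type lungs. ET-type S0242 lay below all L-type lungs and the other ET-type lungs above them, and the difference of 1.04 (SE 0.36) did not pass (adjusted p = 0.194).

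Decorin showed a similar spread in lung, with 317, 796, 565, 138 and 291 TPM in ET-type and 468, 153, 132, 142 and 109 TPM in L-type animals. L-type S0349 stood apart from the other L-type lungs, and the difference of 1.05 (SE 0.49) did not pass (adjusted p = 0.311). For 7 of 10 members ET-type S0309 was the lowest ET-type lung, and for 7 of 10 L-type S0377 the lowest L-type lung. Macrophage markers summed to 55.3 to 225 TPM in ET-type and 178 to 993 TPM in L-type lungs, so the sums overlapped. Of these markers 0 of 6 had a higher mean log2 level in ET-type. Red cell markers (4 of 4 tested) and mesothelial markers (3 of 3 tested) had a higher mean log2 level in ET-type lungs, and their sums overlapped too. Leukocyte (0 of 5 tested), smooth muscle (0 of 6) and endothelial markers (1 of 8) were seldom or never higher in ET-type. In each of these lists 0 markers were called in lung, and the part of these cell types was not tested.

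Whether the type difference itself varied between kidney, liver, lung and spleen was tested for each gene. One member, fibulin-3, passed (F = 7.46, adjusted p = 0.0436), against 1.64% of all genes. Its differences were -0.40 (SE 0.28) in kidney, 0.22 (SE 0.29) in lung and 1.52 (SE 0.33) in spleen, and liver was below 2 TPM in every animal. In kidney it measured 81.5, 109, 50.8 and 57.4 TPM in ET-type and 107, 70.8, 83.9, 108 and 111 TPM in L-type animals, and in lung 101, 211, 134, 97.7 and 78.2 against 164, 111, 68.6, 82.9 and 96.3 TPM. The types overlapped in both of these tissues and not in spleen. The call did not hold without the animal as replicate block (adjusted p = 0.0966) or with a pseudocount of 0.1 (0.177). It ended without ET-type S0235, S0242, S0276 or S0326 (0.0512 to 0.128) and without L-type S0349, S0377, S0384 or S0385 (0.0705 to 0.196).

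**Figure D3:**
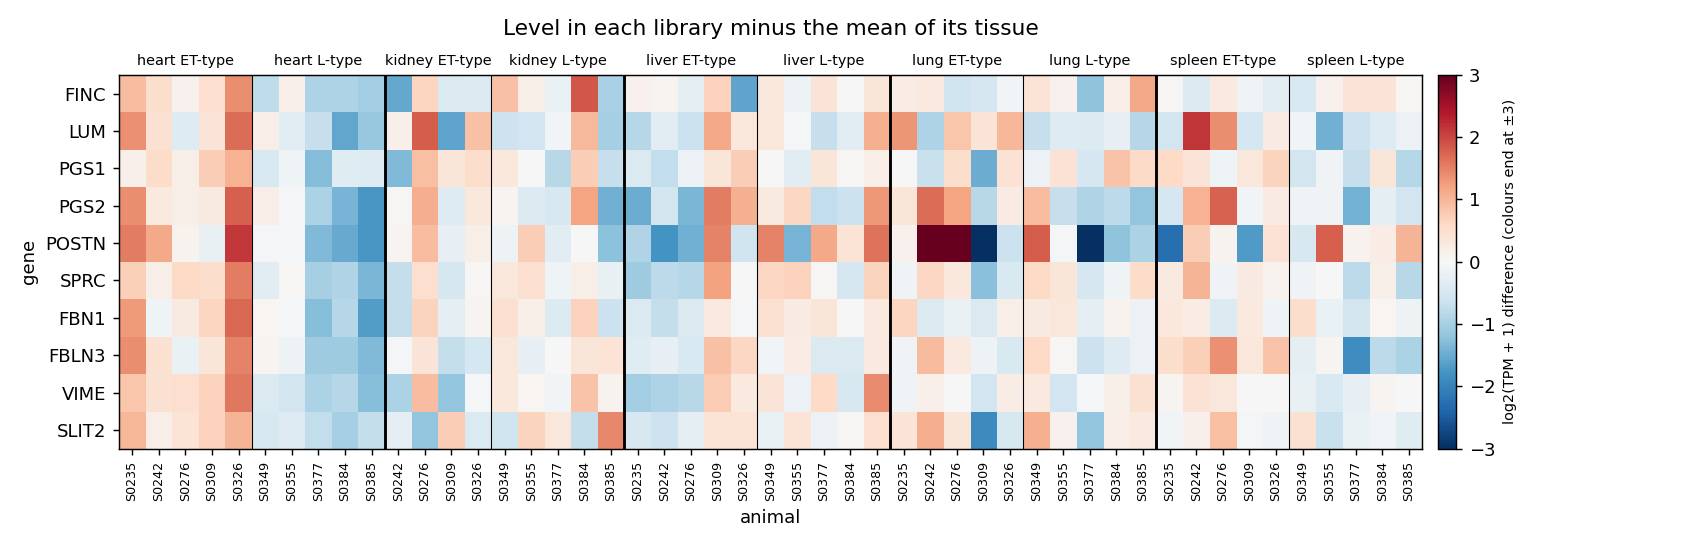
Level of each gene in 49 libraries minus the mean of its tissue, on log2(TPM + 1), with genes in rows and animals in columns by tissue and type (red above and blue below the tissue mean, colours ending at ±3). The heart of S0326 is red in all 10 rows, and columns such as the liver of ET-type S0309 and the heart of L-type S0385 carry 1 colour through most genes.

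The members varied together across animals within tissues. After each tissue mean was removed, the 45 pairs of members had a median Pearson r of 0.54 over 49 libraries, from 0.10 (lumican with SLIT2) to 0.79 (SPARC with vimentin). The median r of members with all other entries was 0.0091. Decorin had the highest median with the other members (0.64), followed by SPARC (0.62) and vimentin (0.61), and fibronectin and SLIT2 the lowest (0.39 each). These libraries share animals and types, and the heart difference taken to have chosen the members is part of them, so the values are descriptive.

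Of the entries outside the list, those with the most similar pattern were named for each member. Decorin was closest to collagen I alpha 2 (CO1A2, r = 0.85), CCD80 (0.84) and matrix Gla protein (MGP, 0.82). Lumican was closest to collagen XIV (COEA1, 0.84), dermatopontin (DERM, 0.78) and ECM2 (0.72), and fibrillin-1 to collagen V alpha 2 (CO5A2, 0.83), RET1 (0.80) and the IGF-binding protein IBP4 (0.79). Fibulin-3 was closest to decorin itself (0.78), and outside the list to CCD80 (0.76), the proteoglycan fibromodulin (FMOD, 0.75) and S10A6 (0.72).

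SPARC was closest to the serine protease HTRA1 (0.85), the caveolar protein CAVN3 (0.82) and GBG11 (0.81), and vimentin to CSRP1 (0.83), E41L2 (0.79) and TF7L1 (0.78). Biglycan was closest to DACT3 (0.79), the nuclear receptor COT1 (0.77) and TGFI1 (0.77), and periostin to the protease inhibitor TFPI2 (0.78), the BMP antagonist CRDL1 (0.77) and HXB2 (0.76). Fibronectin was closest to CBL (0.73), the metalloproteinase MMP19 (0.72) and MYADM (0.70). Among the entries given for SLIT2 were the growth factor TGFB2 (0.63) and ENPP1 (0.62). Each was taken from 13643 other entries.

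Other genes of the same pathways were listed in 11 groups with 114 genes, of which 106 were matched. In heart, where the lists were described and not tested, 86 of 99 had differences above 0 (median 0.60, against 0.09 over all genes). For 15 the ET-type hearts lay above all L-type hearts, and for 1 below, against 3.11% and 1.57% of all genes. Medians were 1.33 for 5 fibrillar collagens, 0.90 for 11 fibroblast genes, 0.82 for 7 other leucine-rich proteoglycans, 0.81 for 14 elastic fibre genes, 0.75 for 13 matricellular genes, 0.53 for 10 matrix proteases and inhibitors, 0.52 for 11 genes of the TGF-beta pathway, 0.32 for 10 basement membrane genes and -0.09 for 5 other intermediate filaments. For 4 Slit and Robo genes the median was 0.58, and for 9 receptors of fibronectin and matrix 0.43. The summed level of the fibroblast list nevertheless overlapped between types (227 to 502 against 280 to 453 TPM).

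In spleen 12 of 100 pathway genes tested were called, 3 higher and 9 lower in ET-type, against 0.696% higher and 21.5% lower among all genes, so the share called lower was under that of all genes. After median-ratio scaling 5 were higher and 1 lower, and after quantile scaling 0 were called. Higher were asporin (ASPN), a proteoglycan related to decorin (8.31 ± 3.43 against 3.27 ± 1.52 TPM, SD, n = 5 each, 1.13, adjusted p = 0.0341), nestin (NEST, 0.75, adjusted p = 0.0396) and desmin (DESM, 0.68, adjusted p = 0.0496). The last 2 are intermediate filaments, as vimentin is. The protein that links such filaments, plectin (PLEC), fell (-0.78, adjusted p = 0.0335). After median-ratio scaling nestin was still called (1.30, adjusted p = 0.0393). Asporin (adjusted p = 0.0539), desmin (0.0535) and plectin (0.411) were then not called.

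Lower in ET-type spleens were the fibronectin-binding integrin alpha-4 (ITA4), at 6.82 ± 3.02 against 23.6 ± 8.77 TPM (SD, n = 5 each; -1.68, adjusted p = 0.0230), and the heparan sulfate proteoglycan syndecan-1 (SDC1, -0.77, adjusted p = 0.0378). Integrin alpha-4 is also made by leukocytes, whose markers were lower in the same spleens, and the part of these was not tested. Of the TGF-beta pathway, the signal transducer SMAD3 (-1.11, adjusted p = 0.0230) and the receptors TGFR1 (-0.88) and TGFR2 (-0.82, both adjusted p = 0.0397) fell. Of the fibroblast list, the PDGF receptors PGFRB (-1.14, adjusted p = 0.0266) and PGFRA (-1.08, adjusted p = 0.0462) and the surface protein THY1 (-1.15, adjusted p = 0.0332) fell. Integrin alpha-4 was the gene called lower after median-ratio scaling as well (-1.14, adjusted p = 0.0391).

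No pathway gene was called in kidney (0 of 99), liver (0 of 75) or lung (0 of 101). Among those with the smallest p of their list, none of which passed, lung values were lower in ET-type for the basement membrane proteoglycans perlecan (PGBM, 36.0 ± 6.52 against 76.8 ± 28.4 TPM, -1.01, adjusted p = 0.105) and agrin (AGRIN, -0.75, adjusted p = 0.130). The elastic fibre protein EMIL1 (-0.65, adjusted p = 0.0943), the SPARC-related SMOC1 (-0.94, adjusted p = 0.134) and the metalloproteinases MMP2 (-0.73, adjusted p = 0.227) and MMP14 (-0.70, adjusted p = 0.232) likewise did not pass, nor did collagen III (CO3A1, 0.55, adjusted p = 0.492). In liver the matricellular CCN2 (-1.03, adjusted p = 0.675) and the SLIT receptors ROBO2 (-0.80, adjusted p = 0.766) and ROBO4 (-0.52, adjusted p = 0.844) did not pass. In spleen the elastin cross-linking enzyme LOXL1 (0.68, adjusted p = 0.0648) and CO1A2 (0.48, adjusted p = 0.155) did not pass.

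The transcripts behind 1 member set an animal apart. Biglycan was carried by a main transcript of 2342 bases, with 95.1% of its TPM on average, and by a second of 2667 bases that was assembled from L-type backfat. Both matched residues 19 to 369 of the bovine protein with 98.3% identity. The second transcript made up 21.2% to 34.3% of biglycan in all 5 tissues of L-type S0377 and at most 1.41% in the other 45 libraries, 26 of which were at 0. With only the main transcript, the biglycan difference in spleen was 0.87 (adjusted p = 0.0545).

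**Figure D4:**
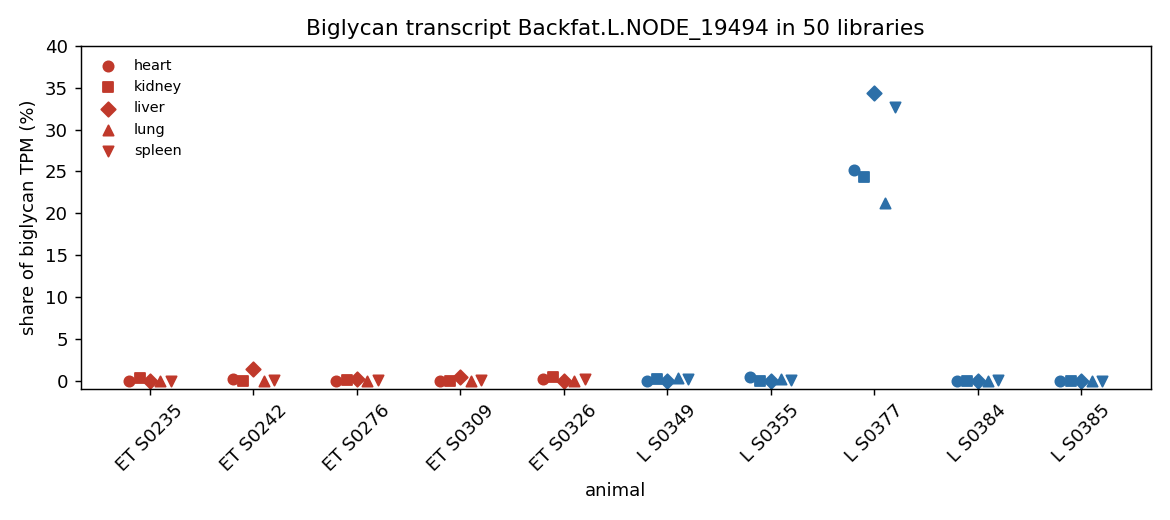
Share of the second biglycan transcript in summed biglycan TPM (%), by animal on the x axis, with a symbol for each tissue; ET-type animals are red and L-type blue. The 5 tissues of S0377 lie between 21.2% and 34.3%, and the other 45 libraries at or below 1.41%.

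Fibrillin-1 and vimentin also divided their TPM between transcripts unevenly. The second fibrillin-1 transcript had a median share of 42.1% in the tissues of L-type S0377 and 42.8% in L-type S0385. In the other 8 animals the medians were 12.4% to 24.9%, with a single liver (ET-type S0309) at 98.6%. Single libraries overlapped, from 25.5% to 57.2% in S0385 and up to 39.4% in ET-type S0235 and L-type S0349. The lowest share in S0377 lay below the lowest in S0385. The second transcript matched residues 1 to 2871 of the pig protein, and the main one only residues 2606 to 2871. The second vimentin transcript held 0% to 71.2% of vimentin TPM, with medians by animal from 16.1% (L-type S0377) to 46.6% (ET-type S0326). Fibronectin's main transcript, with 86.3% of its TPM, matched the dog protein at 70.9% identity, while the main transcripts of the other members matched at 91.4% to 100%. SLIT2 was the most evenly divided, with 53.6% in its main transcript.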

How the data were processed

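Poly(A) RNA libraries (TruSeq Stranded mRNA, TRIzol extraction, per the labels' protocols) were made from 5 tissues of 10 animals. The authors deposited TPM for 57085 transcripts of their assembly, with 50 library columns (each a total of 1e+06) and an annotation of best Swiss-Prot matches. Per the submitters' processing notes, Trimmomatic 0.36 and Salmon 1.10.0 were used, and the build Sscrofa11.1 is listed. The assembler is not given in the sources used here. All value columns were used (0 left out).

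TPM was summed over transcripts sharing an entry (63.9% of transcripts, 14532 entries), and the rest were kept alone, for 35133 genes. Splits of a gene, or matches to a paralog, are not told apart by this. Each tissue was fitted with limma 3.58.1 (trend, empirical Bayes, R 4.3.3) on log2(TPM + 1), leaving out genes whose mean was under 1 TPM. P-values were two-sided, were adjusted over all genes by Benjamini-Hochberg, and were called below 0.05. Tissues were compared over 49 libraries, and a type-by-tissue interaction was fitted with the animal as block. The type fit of each tissue, the fit over tissues and the interaction fit were run on simulated data with added differences. The simulated noise was independent between libraries, with no likeness between tissues of an animal. Recovery was required only for the larger added difference, and not in kidney.

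The members and lists were chosen with earlier results of these data known. Named are all members, of each pathway list those that passed (up to 4 with the smallest p, otherwise the 2 with the smallest p), the 3 most similar entries per member, and markers beside results. Of these, 1 entry that this rule names is not reported here. Tissues of 1 animal share its number. After group means were removed, r across genes averaged 0.257 for 96 pairs of libraries from 1 animal (92 above 0.1), and -0.0644 over 384 other pairs. Removing the means pushes the r of the other pairs below 0 when that of the same animal is above it. The second value is therefore no independent baseline.

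Also tried were all genes unfiltered, a filter at 5 TPM, a pseudocount of 0.1, median-ratio and quantile scaling, removal of mitochondrial and haemoglobin transcripts, a match identity of at least 70%, the top transcript alone, 1 animal left out, the replicate block, and the kidney of S0235 kept. Values were tabulated in R with the package data.table, version 1.17.8, and plotted with matplotlib 3.10.9 in Python 3.11.15, numpy 2.4.6 and pandas 2.3.3.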

Additional observations from a re-analysis of the deposited data

Results flagged for a closer look

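In 4 of 100 groups of a member, tissue and type, 1 animal stood apart from the others by Dixon's criterion, and chance alone would give about 1 in 20. The heart of L-type S0355 held 12.7 TPM of fibronectin, and the other 4 L-type hearts 5.0 to 6.26 TPM. The heart of L-type S0377, the animal with the second biglycan transcript, held 7.90 TPM of biglycan, and the other 4 held 15.0 to 19.0 TPM. The lung of L-type S0349 held 468 TPM of decorin against 109 to 153 TPM in the other L-type lungs. The spleen of ET-type S0276 held 11.8 TPM of SLIT2 against 5.38 to 6.64 TPM in the other ET-type spleens.

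The type difference of fibulin-3 varied between kidney, liver, lung and spleen in a test of that difference itself (F = 7.46, adjusted p = 0.0436), with the largest value in spleen.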

How the results depend on the processing

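Depth is unknown, 5 animals per type limit the precision, and the scale of TPM moves with abundant transcripts. In kidney, liver, lung and spleen, 715 values of single members under an alternative were compared with the main fit. Of these, 671 kept their direction and side of the threshold, 24 reversed, 17 lost and 3 gained a call. Only biglycan and fibulin-3 in spleen had a call to lose, so the 17 losses all fell on these 2. Most of the 715 were of differences with no call in the main fit, and the identity filter left every member transcript in place. In heart, which has no test, 187 of 189 moved by less than 1 SD. In spleen the count of members called was 2, and became 1 with no filter, 1 with the top transcript alone, 1 in the fit with the animal as replicate block and 0 after quantile scaling. The interaction count of 1 became 0 with a pseudocount of 0.1, a mean of at least 5 TPM, the kidney of S0235 kept or no replicate block. In heart, 7 members in place of 4 did not overlap without mitochondrial and haemoglobin transcripts (4.59% in place of 3.11% of all genes), and the heart counts are descriptive. With 1 animal left out the counts ran from 4 to 8 in heart, 0 to 2 in spleen and 0 to 1 for the interaction, and stayed at 0 in kidney, liver and lung and at 10 between tissues. With the replicate block, 25 of 40 neighbouring tissue pairs differed in place of 23, adding heart and spleen for fibrillin-1 (adjusted p = 0.0326) and for fibulin-3 (adjusted p = 0.0379), and it changed 2 more calls, biglycan's in spleen and the interaction of fibulin-3.

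Reversed signs were all of differences that did not pass. With the kidney of S0235 kept, biglycan was -0.12 and decorin -0.11 in kidney. After median-ratio scaling the reversed values were 0.041 (SPARC, kidney), 0.19 (fibrillin-1, kidney), 0.048 (fibrillin-1, lung), 0.042 (vimentin, lung) and 0.38 (fibronectin, spleen). After quantile scaling they were 0.11 (fibrillin-1, kidney), 0.032 (fibrillin-1, lung) and 0.19 (fibronectin, spleen). With the top transcript alone they were 0.015 for fibrillin-1 in kidney, 0.014 for fibrillin-1 in lung and 0.044 for SLIT2 in lung, and without mitochondrial and haemoglobin transcripts fibronectin in spleen was 0.052. With 1 animal left out, ranges that crossed 0 were -0.37 to 0.091 (fibrillin-1) and -0.048 to 0.69 (biglycan) in kidney, -0.33 to 0.057 (lumican), -0.30 to 0.073 (biglycan) and -0.75 to 0.0054 (decorin) in liver, and -0.53 to 0.23 (SLIT2) and -0.27 to 0.016 (vimentin) in lung. The cause was not tested.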
